A study of Homo sapiens with 6 samples.

Results

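The genes described here encode the chaperones and co-chaperones of the cytosol and the mitochondrial matrix, with the transcription factors HSF1 and HSF2 that control many of them. A list of 38 genes was chosen by name, and 35 of them were measured among 18372 genes on 19291 transcript clusters, the units in which this array reports a transcript. The cells were HepG2, a line from a human liver tumour, and their RNA was measured on Affymetrix Human Gene 1.0 ST arrays. The untreated group had 3 arrays of untreated cells, for which no vehicle is named. The leaf-treated group had 3 arrays of cells given the water leaf extract of Barringtonia racemosa, a tropical plant, at 50 µg/ml for 24 h. Only 1 dose, 1 time and 1 cell line were examined, and the question was how the extract changes transcript levels in these cells.

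Chaperones of the HSP70 family bind exposed stretches of unfinished or unfolded proteins in a cycle driven by ATP. J domain proteins deliver the clients and start ATP hydrolysis, and the HSP110 proteins and BAG3 release the nucleotide. STIP1 links HSP70 to HSP90, which finishes kinases, steroid receptors and other signalling proteins with a changing set of co-chaperones. The chaperonin CCT folds actin and tubulin in a closed chamber, and HSPD1 with its lid HSPE1 does the same for proteins of the mitochondrial matrix. When unfolded proteins build up, HSF1 binds repeats of a short unit in the promoters of these genes and raises their transcription. Hepatocytes make large amounts of protein, and the folding genes of the endoplasmic reticulum, the compartment of secretory proteins, are described apart.

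Of the 12 hepatocyte markers examined, 10 were measured, among them ALB and AFP, at log2 values of 7.61 to 11.4 on every array. Markers of blood, fibroblasts and squamous lines lay between 2.355 and 4.586, where the medians over 378 clusters of olfactory receptors, which stand in for background, were 2.77 to 2.86. Not all were at background. COL1A1 at 4.16 to 4.59, KRT14 at 3.71 to 4.46 and KRT16 at 3.64 to 4.16 lay above the 95th percentile of those clusters, 3.28. COL1A2 lay just above it, at 3.29 to 3.44. None of the 5 measured squamous markers had an unadjusted p under 0.05. Their summed log2 level was 15.84 to 16.81 in untreated cells and 17.6, 16.25 and 17.8 on leaf-treated arrays 1, 2 and 3. Leaf-treated array 2 correlated with the untreated arrays at 0.992 to 0.993 across clusters, while leaf-treated arrays 1 and 3 did so at 0.984 to 0.988. With leaf-treated arrays 1 and 3, array 2 correlated at 0.986 to 0.988, so it was closer to the untreated arrays than to its own group. What part these differences have in the results was not tested. The labels call the replicates biological without saying whether they were separate cultures, and the p-values speak of the spread among these arrays alone.

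Transcripts of the chaperone genes were mostly lower after the leaf extract, by small amounts. The log2 fold change was below 0 for 31 of the 35 genes (88.6%), as it was for 46.9% of all clusters tested. Its median was -0.16, or -0.07 after quantile normalization and -0.235 after centring each array on its median, and over all clusters it was 0.01. The 4 genes above 0 were DNAJB6, HSPB1, HSF1 and BAG3. The largest differences belonged to CHORDC1 and STIP1, which act with HSP90, and to HSPE1. In a list chosen with earlier results of these arrays known, these counts are a description. The arrays cannot tell less RNA per cell from fewer cells that express a gene.

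No chaperone gene passed an adjusted p of 0.05 in limma. Only 1 of all clusters did (0.00518%), and the smallest adjusted p among the chaperone genes was 0.383. At an unadjusted p under 0.05, 9 of 35 genes (25.7%) were lower and 0 were higher, where 5.9% of all clusters were lower and 3.87% higher. These 9 were STIP1, HSPE1, HSPH1, HSPA8, CHORDC1, PPID, DNAJA1, CCT2 and HSPA4. The series' design asks for a change of 1.5 fold or more beside an unadjusted p under 0.05, and CHORDC1 alone passed these thresholds. That is 1 of 35 genes (2.86%) beside 0.57% of all clusters in the lower direction, and 0 genes beside 0.27% in the higher direction. All 3 leaf-treated values lay below all 3 untreated values for 15 of 35 genes (42.9%) and above them for 0, where the shares over all clusters were 7.41% and 6.14%.

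These shares need to be read with the brightness of the clusters. Over all clusters, those with a mean log2 value over 8 had a median log2 fold change of -0.11, and 18.7% of them were lower at an unadjusted p under 0.05. Between 6 and 8 the median was -0.12 and the share 17.6%, while under 4 the median was 0.05 and the share 1.11%. Chaperone genes lay mostly in the brighter ranges. Of the 14 with a mean over 8, 6 were lower by the same count, and their median was -0.19. Of the 10 between 6 and 8, 3 were lower, with a median of -0.27. Of the 9 between 4 and 6 and the 2 under 4, 0 were lower. Bright clusters as a whole thus gave a higher background than all clusters together.

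**Figure D1:**
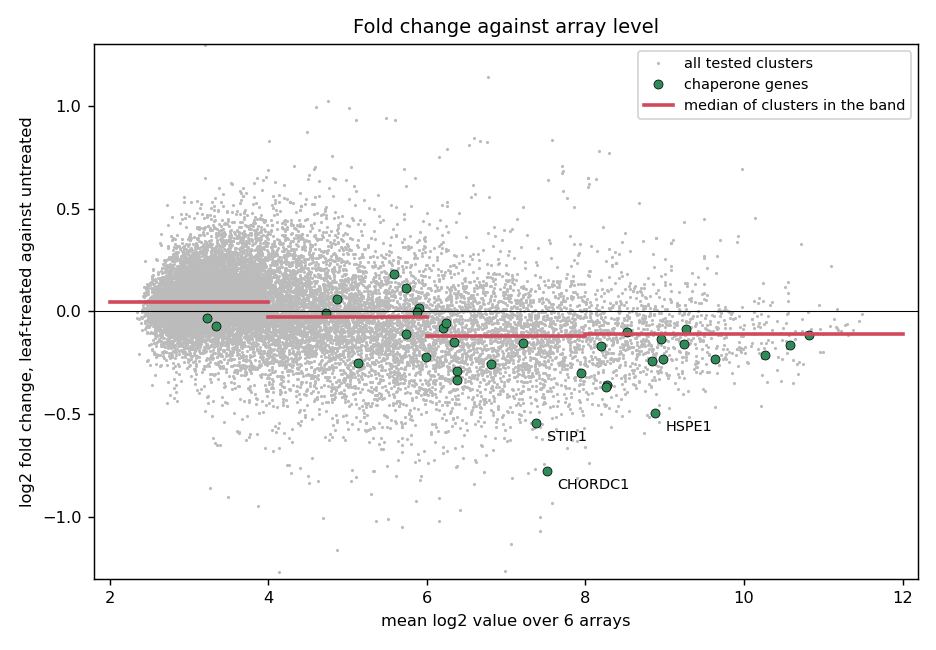
Log2 fold change of leaf-treated against untreated cells (vertical axis, with 3 clusters outside its range) by mean log2 value over the 6 arrays (horizontal axis), for the 19291 tested clusters in grey and the 35 chaperone genes in green, with red lines at the median of all clusters in each range of level. The red lines go from 0.05 under a level of 4 to -0.11 above 8, and most chaperone points above 6 lie under them.

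The count of 9 lower genes depended on single arrays. It was 4 without untreated array 1 or 3, where 2.91% and 3.77% of all clusters were lower, and 5 without leaf-treated array 1, beside 3.66%. Without leaf-treated array 2 it was 14, and the share of all clusters rose with it to 11.7%. After quantile normalization it was 5, beside 5.38%. STIP1 and HSPE1 kept an unadjusted p under 0.05 in all 15 other settings (scalings, fits and single arrays left out), HSPH1 and HSPA8 in 14, CHORDC1 in 12, PPID and DNAJA1 in 9, and CCT2 and HSPA4 in 7.

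Among the co-chaperones of HSP70 and HSP90, 7 of 9 genes were measured, with a median log2 fold change of -0.30 (-0.185 after quantile normalization). At an unadjusted p under 0.05, 3 (42.9%) were lower, beside 5.9% of all clusters and 17.6% to 18.7% in the ranges of level above 6. STIP1, the adaptor that holds HSP70 and HSP90 together while a client passes between them, had log2 values of 7.76, 7.62 and 7.56 on untreated arrays 1 to 3 and of 6.89, 7.30 and 7.12 on leaf-treated arrays 1 to 3. The leaf-treated arrays were all lower, with array 1 the lowest. Its log2 fold change was -0.54 (standard error 0.12, unadjusted p = 0.00306, adjusted p = 0.383 from limma), or 0.687 of the untreated level. CHORDC1, a cochaperone of HSP90 that binds zinc, had log2 values of 8.20, 7.59 and 7.91 on untreated arrays 1 to 3 and of 6.61, 7.28 and 7.49 on leaf-treated arrays 1 to 3. It had the widest spread of the 35 chaperone genes in both groups, and the lowest untreated value lay just above the highest leaf-treated one. The log2 fold change was -0.77 (standard error 0.26, unadjusted p = 0.0213, adjusted p = 0.5 from limma), a level 0.585 of that in untreated cells, and it was -0.51 without leaf-treated array 1. CHORDC1 no longer passed the thresholds of the series without that array, without untreated array 1 or 3, or under the series' analysis of variance.

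PPID is a peptidyl-prolyl isomerase that docks on the tail of HSP90. It had log2 values of 8.63, 8.30 and 8.40 on untreated arrays 1 to 3 and of 7.92, 8.30 and 8.05 on leaf-treated arrays 1 to 3. Leaf-treated array 2 and untreated array 2 were all but equal, and the log2 fold change was -0.36 (standard error 0.13, unadjusted p = 0.029, adjusted p = 0.506 from limma). FKBP4, an isomerase of steroid receptor complexes, had log2 values of 8.12, 7.90 and 8.25 on untreated arrays 1 to 3 and of 7.60, 7.96 and 7.80 on leaf-treated arrays 1 to 3. Leaf-treated array 2 lay within the untreated range, and the log2 fold change was -0.30 (standard error 0.13, unadjusted p = 0.0517, adjusted p = 0.513 from limma). PTGES3, also known as p23, closes the HSP90 cycle around a client and had log2 values of 6.15, 5.96 and 6.17 on untreated arrays 1 to 3 and of 5.93, 5.97 and 5.72 on leaf-treated arrays 1 to 3. The groups overlapped, and the log2 fold change was -0.22 (standard error 0.10, unadjusted p = 0.0628, adjusted p = 0.513 from limma), or -0.14 without leaf-treated array 3. The kinase adaptor CDC37 had a log2 fold change of -0.26, with leaf-treated array 2 above the untreated mean and arrays 1 and 3 below every untreated array. BAG3, which exchanges the nucleotide of HSP70 and steers clients to autophagy, had a log2 fold change of 0.02, or -0.06 after centring. AHSA1, the activator of HSP90's ATPase, is in no cluster of the annotation, and ST13 is there only in a cluster with several symbols, so neither has a value.

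**Figure D2:**
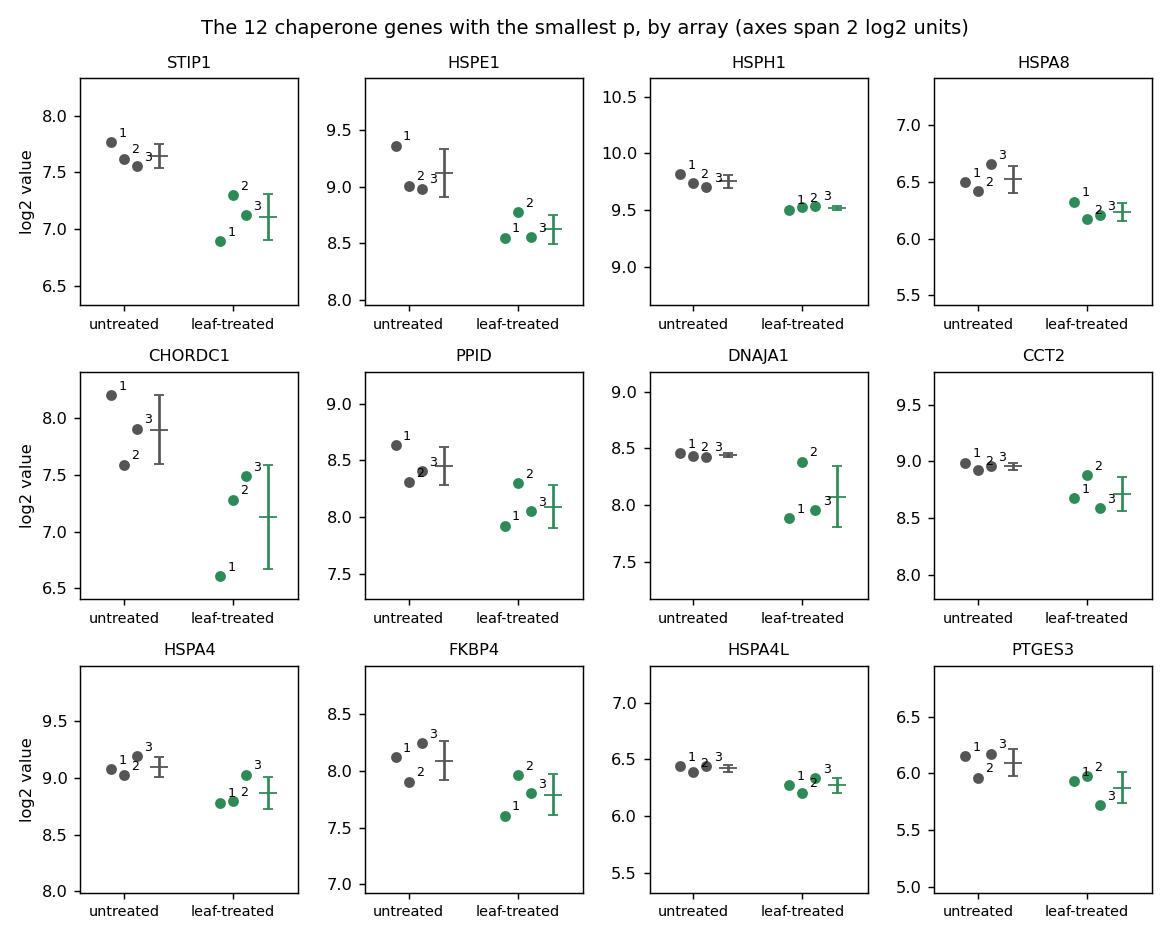
Log2 values of the 12 chaperone genes with the smallest p, with a point per array numbered by replicate, and the mean ± SD of each group of 3 arrays beside the points. Every vertical axis spans 2 log2 units, and for 9 of the 12 genes the leaf-treated points do not overlap the untreated ones. The 12 were picked by p, so this count follows in part from the choice and is no evidence of its own. Over all 35 genes it was 15 (42.9%), all lower, beside 7.41% of all clusters.

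Of the HSP70 and HSP110 proteins, with the mitochondrial HSPA9 counted among them, all 6 had a log2 fold change below 0, with a median of -0.19. That was so for 46.9% of all clusters. At an unadjusted p under 0.05, 3 (50%) were lower, beside 5.9% of all clusters and 17.6% to 18.7% in the ranges of level above 6. HSPA8, the constitutive HSP70 of the cytosol, had log2 values of 6.50, 6.42 and 6.66 on untreated arrays 1 to 3 and of 6.33, 6.17 and 6.21 on leaf-treated arrays 1 to 3. All leaf-treated arrays lay under all untreated ones, and the log2 fold change was -0.29 (standard error 0.09, unadjusted p = 0.0137, adjusted p = 0.469 from limma). HSPH1, the HSP110 that opens HSP70 for a new nucleotide, had log2 values of 9.82, 9.74 and 9.70 on untreated arrays 1 to 3 and of 9.50, 9.52 and 9.54 on leaf-treated arrays 1 to 3. The leaf-treated arrays lay close together below all untreated ones, and the log2 fold change was -0.23 (standard error 0.06, unadjusted p = 0.00877, adjusted p = 0.442 from limma), or 0.851 of the untreated level. HSPA4, also an exchange factor, had log2 values of 9.07, 9.02 and 9.19 on untreated arrays 1 to 3 and of 8.78, 8.79 and 9.03 on leaf-treated arrays 1 to 3. Leaf-treated array 3 reached the untreated range, and the log2 fold change was -0.23 (standard error 0.09, unadjusted p = 0.0458, adjusted p = 0.507 from limma).

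HSPA4L, a close relative of HSPA4, had log2 values of 6.44, 6.39 and 6.44 on untreated arrays 1 to 3 and of 6.27, 6.21 and 6.34 on leaf-treated arrays 1 to 3. The groups did not overlap, and the log2 fold change was -0.15 (standard error 0.07, unadjusted p = 0.057, adjusted p = 0.513 from limma). HSPA1L, an HSP70 best known from testis, had group means of 3.24 and 3.21 on the log2 scale, under the 95th percentile of olfactory receptor clusters at 3.28, and a log2 fold change of -0.03. Its 3 clusters hold the same values. After quantile normalization the median of the 6 genes was -0.115, and 0 were lower at an unadjusted p under 0.05, with values of -0.174 for HSPA8, -0.154 for HSPH1 and -0.134 for HSPA4. HSPA1A and HSPA1B, the HSP70 genes that heat induces most, are joined in clusters with several symbols and have no value here.

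Neither of the cytosolic HSP90 genes had an unadjusted p under 0.05. HSP90AA1, the inducible form, had log2 values of 10.39, 10.22 and 10.52 on untreated arrays 1 to 3 and of 10.09, 10.07 and 10.32 on leaf-treated arrays 1 to 3. The groups overlapped, and the log2 fold change was -0.21 (standard error 0.11, unadjusted p = 0.0928, adjusted p = 0.53 from limma), with a 95% interval from -0.47 to 0.05. It was -0.14 without untreated array 3 and -0.115 after quantile normalization. HSP90AB1, the constitutive form, had log2 values of 10.81, 10.78 and 11.02 on untreated arrays 1 to 3 and of 10.65, 10.76 and 10.86 on leaf-treated arrays 1 to 3. These groups overlapped as well, and the log2 fold change was -0.11 (standard error 0.10, unadjusted p = 0.278, adjusted p = 0.662 from limma), with an interval from -0.34 to 0.12. It was -0.04 when untreated array 3 was left out. HSPA8, HSPD1, HSPE1 and the HSP90 genes have pseudogene copies in the genome, and whether RNA of these reaches the probes was not tested.

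J domain proteins had a median log2 fold change of -0.21 over 6 genes, of which 5 were below 0 and 1 (16.7%) was lower at an unadjusted p under 0.05. That share is near the 17.6% to 18.7% of clusters in the ranges of level above 6, while over all clusters it was 5.9%. DNAJA1, a farnesylated partner of HSPA8, had log2 values of 8.46, 8.43 and 8.43 on untreated arrays 1 to 3 and of 7.88, 8.38 and 7.95 on leaf-treated arrays 1 to 3. Leaf-treated array 2 lay just below the tight untreated values, and arrays 1 and 3 lay well below them. The log2 fold change was -0.37 (standard error 0.13, unadjusted p = 0.0315, adjusted p = 0.507 from limma). DNAJB1, the classic HSP40, had log2 values of 6.62, 6.50 and 6.50 on untreated arrays 1 to 3 and of 5.75, 6.46 and 6.41 on leaf-treated arrays 1 to 3. Only leaf-treated array 1 lay far below the untreated values, and the log2 fold change was -0.33 (standard error 0.19, unadjusted p = 0.129, adjusted p = 0.559 from limma). DNAJB4, DNAJC7 and DNAJA2 had log2 fold changes of -0.25, -0.17 and -0.16, with unadjusted p of 0.0887, 0.0959 and 0.165. DNAJB6, which keeps aggregating proteins soluble, was the largest of the 4 positive values at 0.18 (standard error 0.09, unadjusted p = 0.0826, adjusted p = 0.52 from limma). It had log2 values of 5.44, 5.56 and 5.47 on untreated arrays 1 to 3 and of 5.80, 5.70 and 5.52 on leaf-treated arrays 1 to 3. Leaf-treated array 3 lay within the untreated range, and the unadjusted p was under 0.05 without that array and after quantile normalization.

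The mitochondrial chaperones, which include HSPA9 and TRAP1, had a median log2 fold change of -0.12 over 4 genes, or -0.01 after quantile normalization. HSPE1, the lid of the matrix chaperonin, had log2 values of 9.36, 9.01 and 8.98 on untreated arrays 1 to 3 and of 8.55, 8.77 and 8.55 on leaf-treated arrays 1 to 3. Untreated array 1 was the highest, leaf-treated array 2 the highest of its group, and the groups did not overlap. The log2 fold change was -0.49 (standard error 0.13, unadjusted p = 0.00652, adjusted p = 0.411 from limma), or 0.711 of the untreated level. HSPD1, which forms the chamber, had log2 values of 10.67, 10.51 and 10.82 on untreated arrays 1 to 3 and of 10.52, 10.50 and 10.49 on leaf-treated arrays 1 to 3. The leaf-treated arrays were nearly equal and overlapped the lowest untreated array, and the log2 fold change was -0.16 (standard error 0.09, unadjusted p = 0.122, adjusted p = 0.553 from limma). It was -0.0848 without untreated array 3 and -0.0657 after quantile normalization. The pair is transcribed from opposite strands with RefSeq starts 105 bases apart. Whether the change of HSPE1 differs from that of HSPD1 was not tested. HSPA9, the matrix HSP70, had a log2 fold change of -0.08, which turned to 0.04 after quantile normalization, and TRAP1, the matrix HSP90, one of -0.00406 in the brighter of its 2 clusters and -0.05 in the other.

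All 8 subunits of CCT had a log2 fold change below 0, from -0.24 to -0.01, with a median of -0.10. Of all clusters 46.9% were below 0, and those with a mean level over 8 had a median of -0.11. After quantile normalization 6 were below 0 and the median was -0.01, with CCT3 and CCT4 above 0. CCT2 had log2 values of 8.99, 8.92 and 8.96 on untreated arrays 1 to 3 and of 8.67, 8.88 and 8.58 on leaf-treated arrays 1 to 3. The leaf-treated arrays lay below all untreated ones, and the log2 fold change was -0.24 (standard error 0.09, unadjusted p = 0.0322, adjusted p = 0.507 from limma). Its unadjusted p was over 0.05 in 8 of the 15 other settings, among them quantile normalization, with a value of -0.132, and the omission of any array but leaf-treated array 2. Over the other subunits CCT8 had a value of -0.16, CCT7 of -0.13, TCP1 of -0.11, CCT4 of -0.10, CCT5 of -0.08, CCT3 of -0.06 and CCT6A of -0.01. Unadjusted p was 0.111 to 0.888 for these 7. The groups did not overlap for CCT2, CCT8, TCP1 and CCT3, with the leaf-treated values lower, as for 7.41% of all clusters. The values of the CCT3 cluster are equal to those of a cluster of its neighbour TSACC, so they cannot be told apart.

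Small heat shock proteins hold unfolding proteins without ATP. HSPB1 had a log2 fold change of 0.11 (unadjusted p = 0.261) and CRYAB one of -0.07 (unadjusted p = 0.553). CRYAB was dim, at a mean of 3.38 in untreated cells and 3.31 after the extract. HSF1, the main activator of the heat shock response, had log2 values of 4.77, 4.99 and 4.74 on untreated arrays 1 to 3 and of 4.86, 5.03 and 4.80 on leaf-treated arrays 1 to 3. The groups overlapped, and the log2 fold change was 0.06 (standard error 0.10, unadjusted p = 0.553, adjusted p = 0.817 from limma), which turned to -0.01 after centring and to -0.00339 without leaf-treated array 2. HSF2 is in no cluster of the annotation.

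**Figure D3:**
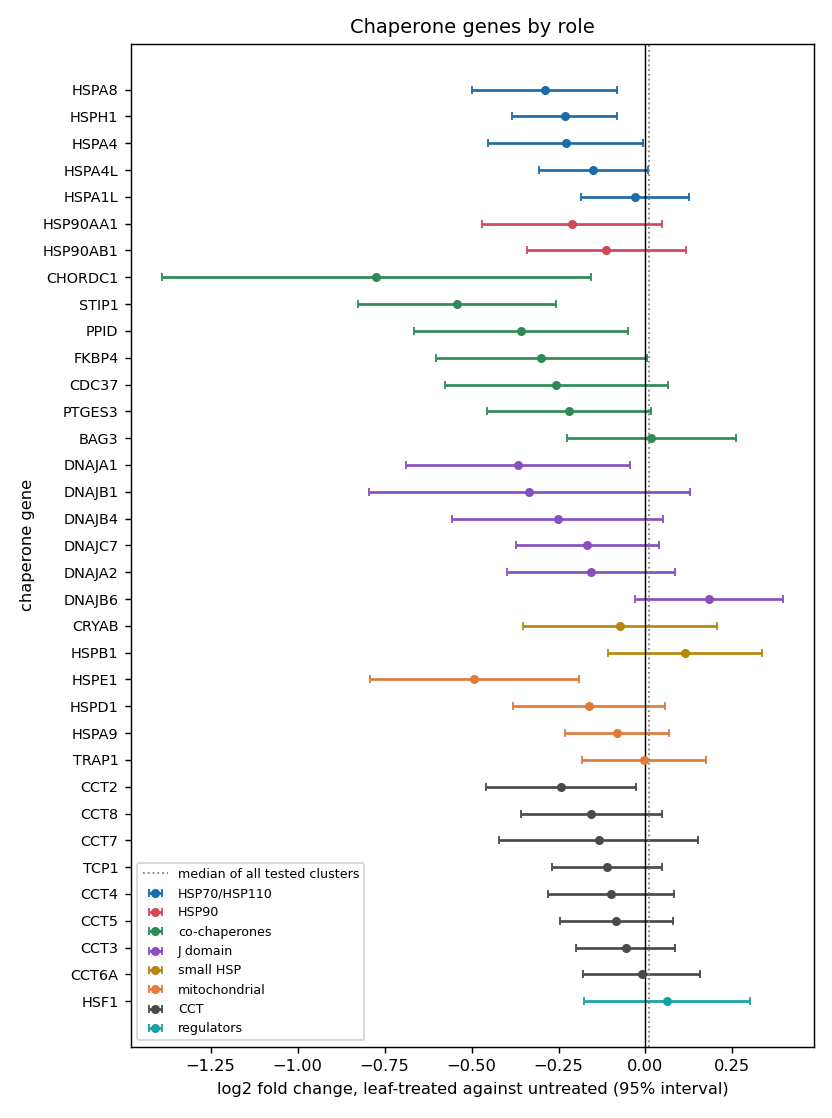
Log2 fold change of leaf-treated against untreated cells for the 35 measured chaperone genes, with 95% intervals from limma, coloured by role and with a dotted line at the median of all clusters, 0.01. The intervals of STIP1, CHORDC1, PPID, HSPE1, HSPH1, HSPA8, HSPA4, DNAJA1 and CCT2 lie below 0, and no interval lies above it.

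The 3 leaf-treated arrays did not carry the same pattern. Against the mean of the untreated arrays, the median over the 35 genes was -0.18, -0.08 and -0.17 on leaf-treated arrays 1, 2 and 3. For the co-chaperones these medians were -0.49, -0.13 and -0.38, and for J domain proteins -0.24, -0.05 and -0.23. Array 2 was the closest to the untreated mean for 5 of the 7 co-chaperones and 5 of the 6 J domain proteins. For HSP70 and HSP110 the medians were -0.17, -0.22 and -0.08, and array 3 was the closest for 4 of the 6 genes. Over all chaperone genes array 2 was the closest for 17 of 35 (48.6%), where it was for 8259 of all 18372 genes. DNAJB1 and CHORDC1 were lowest on array 1, and DNAJB4 on array 3.

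**Figure D4:**
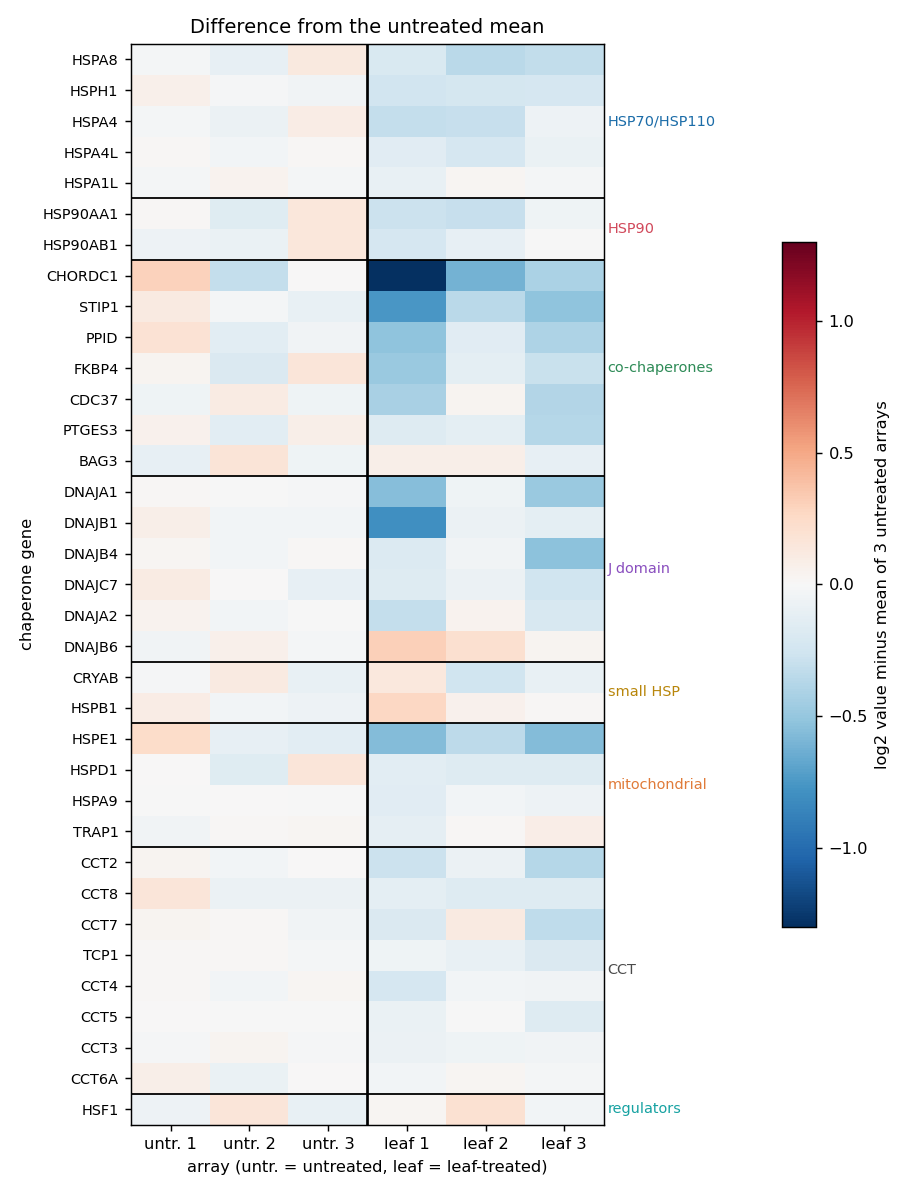
Colours give the log2 value of each chaperone gene on each array minus the mean of its 3 untreated arrays, with blue for lower and red for higher, and genes grouped by role. By their medians, co-chaperones and J domain proteins are bluer on leaf-treated arrays 1 and 3 than on array 2, with exceptions such as CHORDC1, DNAJB6 and BAG3, and HSPA8, HSPA4 and HSPA4L are at least as blue on array 2 as on array 3.

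HSF1 acts through heat shock elements, in which a unit of 3 bases, GAA, alternates with its inverse, TTC, with 2 bases between units. RefSeq windows from 250 bases before to 50 after each transcript start (GRCh38.p14) were searched on both strands for 3 such units in a row. Windows were at hand for 33 of the 38 genes. A run of 3 was found in 7 of their 48 windows (14.6%), where 0.49% of all 35116 windows hold one. The shorter pattern of GAA and TTC with 2 bases between, which lies within every run of 3, was in 27.1% of the chaperone windows and 6.77% of all. A match is a description of these letters and not evidence of binding.

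The 7 genes with a run of 3 or more were HSPA8, CHORDC1, DNAJA1, DNAJB6, HSP90AA1, HSPD1 and HSP90AB1. Of these, HSPA8, CHORDC1 and DNAJA1 were lower at an unadjusted p under 0.05, and DNAJB6 had the positive value of 0.18. By the same count, 9 of all 35 chaperone genes (25.7%) were lower. So were 5.9% of all clusters and 17.6% to 18.7% in the ranges of level above 6. No run of 3 was found for STIP1, HSPE1 and HSPH1, which are among the genes with the smallest p. Bases outside the windows were not searched, and 5 of the 38 genes had no window. HSPE1 starts 105 bases from the nearest start of HSPD1, and the run of HSPD1 is in the window of its downstream start. CHORDC1, with the largest difference, also has the longest run, 5 units that span 60 to 38 bases before its start. HSPD1, with the next longest run of 4 units, had a log2 fold change of -0.16 (unadjusted p = 0.122 from limma). Whether runs or their length go with the changes was not tested. For CHORDC1, DNAJB6 and HSP90AA1 the 250 bases before the start are printed, to show how the runs sit in the promoter and how those of genes with a negative and a positive value look. Runs are in capitals, each sequence reads 5′ to 3′ on the strand of the gene, and for HSP90AA1 the start is the downstream of 2.
CHORDC1 (chr11:90223050-90223299, minus strand): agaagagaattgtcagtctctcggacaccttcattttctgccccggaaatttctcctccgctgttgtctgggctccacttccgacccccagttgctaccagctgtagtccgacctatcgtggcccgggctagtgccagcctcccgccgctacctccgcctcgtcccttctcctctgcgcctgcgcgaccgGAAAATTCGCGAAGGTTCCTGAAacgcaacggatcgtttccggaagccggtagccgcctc
DNAJB6 (chr7:157336754-157337003, plus strand): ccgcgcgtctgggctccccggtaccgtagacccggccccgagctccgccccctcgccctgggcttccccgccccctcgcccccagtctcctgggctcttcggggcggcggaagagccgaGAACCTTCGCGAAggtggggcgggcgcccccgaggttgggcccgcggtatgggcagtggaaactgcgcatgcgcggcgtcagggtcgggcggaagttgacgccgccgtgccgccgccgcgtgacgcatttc
HSP90AA1 (chr14:102087045-102087294, minus strand): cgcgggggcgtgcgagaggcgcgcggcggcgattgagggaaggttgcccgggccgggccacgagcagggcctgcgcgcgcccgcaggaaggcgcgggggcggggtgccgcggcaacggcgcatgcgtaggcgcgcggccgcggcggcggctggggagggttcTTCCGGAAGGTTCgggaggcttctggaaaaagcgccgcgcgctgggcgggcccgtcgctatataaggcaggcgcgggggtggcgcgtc

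For 3 further genes only the run with 6 flanking bases, or fewer at the end of a window, is given, since the places of the runs differ. HSPA8 has one run 230 to 218 and another 55 to 43 bases before its start, HSPD1 has 4 units 245 to 228 bases before the downstream of its 2 starts, and that of DNAJA1 lies 3 to 15 bases after the start.
HSPA8, far run (chr11:123062348-123062372, minus strand): gagcttGAAAGTTCCAGAAcgctgc
HSPA8, near run (chr11:123062173-123062197, minus strand): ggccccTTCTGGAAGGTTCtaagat
HSPD1 (chr2:197500062-197500090, minus strand): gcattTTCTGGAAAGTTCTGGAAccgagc
DNAJA1 (chr9:33025270-33025294, plus strand): cgggcgGAACTTTCCAGAAcgctcg

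**Figure D5:**
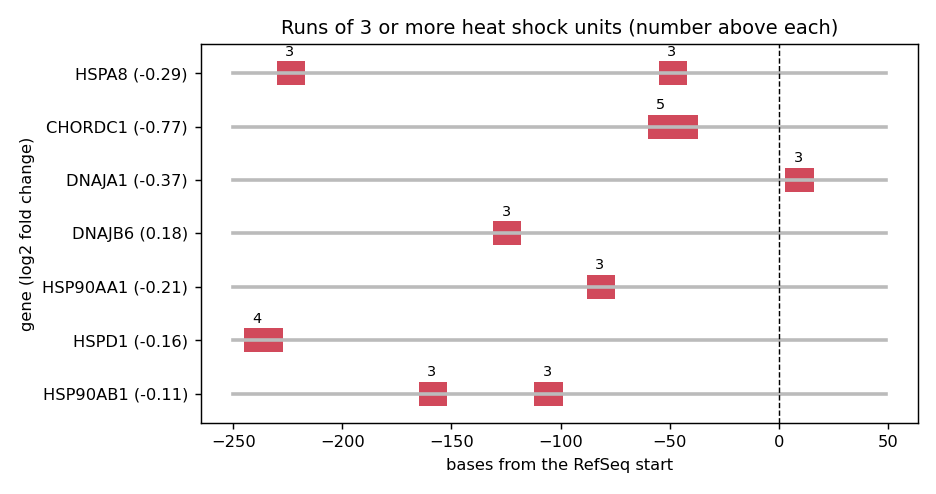
Runs of 3 or more heat shock units (red boxes, with the number of units above) in the windows of 7 chaperone genes, by distance in bases from the RefSeq start (dashed line). Genes are ordered by p, with their log2 fold change in brackets, and the runs lie at no common distance, from 245 bases before the start for HSPD1 to 15 after it for DNAJA1.

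Other chaperone genes, taken from a further list of 65 that shares no gene with the 38 and includes HSPA1A and HSPA1B, were measured for 57. Of these, 9 (15.8%) were lower at an unadjusted p under 0.05 and 0 higher, with a median log2 fold change of -0.08. Over all clusters 5.9% were lower and 3.87% higher, and 17.6% to 18.7% were lower in the ranges of level above 6. The thresholds of the series were passed by 1 gene (1.75%), beside 0.57% of all clusters in the lower direction. VBP1, a subunit of the prefoldin that hands actin and tubulin to CCT, was the 1 gene past the thresholds of the series, at -0.70 (standard error 0.20, unadjusted p = 0.0116, adjusted p = 0.458 from limma). Its mean log2 value was 7.10 in untreated and 6.399 in leaf-treated cells, and the groups did not overlap. PFDN4, a further prefoldin subunit, had a log2 fold change of -0.55 (unadjusted p = 0.00849 from limma). The prefoldin subunits PFDN2, PFDN6, PFDN5 and PFDN1 had values of -0.21, -0.21, -0.13 and 0.01, with unadjusted p of 0.0769 to 0.96 from limma. PDCL3, a regulator of CCT, had a value of -0.55 (unadjusted p = 0.0369 from limma), and its groups overlapped. DNAJC19, with a smaller p than PDCL3, had a value of -0.27 (unadjusted p = 0.0201 from limma). DNAJC2, a J domain protein of the ribosome, had the smallest p of the list, with a log2 fold change of -0.53 (standard error 0.09, unadjusted p = 0.000647, adjusted p = 0.297 from limma), and all leaf-treated arrays below all untreated ones. BAG4 and BAG1, exchange factors of HSP70, had log2 fold changes of -0.39 and -0.43, and NUDCD1 had one of -0.45. HSPA6, an HSP70 that is nearly silent without stress, had log2 values of 3.41 to 3.64 on untreated arrays and 4.06, 2.93 and 3.43 on leaf-treated ones, with no direction.

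Folding genes of the endoplasmic reticulum, which share DNAJC3 with the list before, were measured for 23. Their log2 fold change was below 0 for 16, with a median of -0.04. As deposited, 0 were lower and 2 higher at an unadjusted p under 0.05, SYVN1 at 0.31 and HERPUD1 at 0.26, both parts of the degradation of misfolded secretory proteins. After quantile normalization 1 was lower and 2 higher, and after centring 1 was lower and 0 higher. HSPA5, the HSP70 of this compartment, had log2 values of 10.39, 10.15 and 10.47 on untreated arrays 1 to 3 and of 10.08, 10.29 and 10.11 on leaf-treated arrays 1 to 3. The groups overlapped, and the log2 fold change was -0.18 (unadjusted p = 0.146). Among 28 proteasome subunits, 4 (14.3%) were lower and 0 higher, with a median of -0.13. After quantile normalization 2 were lower and 1 higher with a median of -0.0256, and after centring 9 were lower and 0 higher with a median of -0.21. Over all clusters 5.9% were lower and 3.87% higher as deposited, 5.38% and 4.57% after quantile normalization, and 9.67% and 1.69% after centring. In the ranges of level above 6, 17.6% to 18.7% of clusters were lower as deposited. The differences between these lists and the chaperone genes were not tested.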

How the data were processed

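RNA of 3 untreated and 3 leaf-treated HepG2 samples was measured on Affymetrix Human Gene 1.0 ST arrays. The deposited values are log2 expression per transcript cluster. Per the labels, the authors' processing notes name GCOS, Partek and RMA (background correction, quantile normalization and median polish), without versions. Of 33297 rows, 4468 were at 0 on all arrays and were left out. Of the other 28829, 19291 had 1 gene symbol in the platform annotation and were tested, 1735 had several and 7803 none. The cluster with the highest mean stood for a gene with several.

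The test was limma (3.58.1, under R 4.3.3) with moderated variances (6.513 total degrees of freedom), two-sided tests and Benjamini-Hochberg adjustment over all 19291 clusters. The script was tested on simulated data. The chaperone genes, the other lists and the rule for named genes (the 12 with the smallest p, with HSPD1, HSP90AA1, HSP90AB1 and HSF1) were chosen with earlier results of these arrays known. The labels call the replicates biological, and 3 arrays per group limit the precision. Levels of clusters were used to choose a cluster per gene, to set ranges of level and to judge background, not to compare the abundance of genes. The build behind the annotation is not given in the sources used here, so promoter coordinates are those of RefSeq alone. Alternatives covered scaling, dim clusters, the variance model, array weights, the series' analysis of variance, row and cluster choice, a replicate block and leaving out each array.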

Additional observations from a re-analysis of the deposited data

How the results depend on the processing

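Each count and the 16 named genes were computed again under 15 other settings, 6 of which left out 1 array. The number of chaperone genes past an adjusted p of 0.05 was 0 in every one. Of the 256 values for named genes, counted with the fit of array 2 alone, 254 kept their direction. The 2 that did not were of HSF1, at -0.0149 after centring each array on its median and -0.00339 without leaf-treated array 2, where leaving out single arrays gave up to 0.141. The cause was not tested.

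Counts are given with the share of all clusters in the same setting. After quantile normalization 5 genes were lower (5.38%) and 1 higher (4.57%) at an unadjusted p under 0.05, the median log2 fold change was -0.0657, and 8 genes had groups that did not overlap (16.3%, against 13.5% in both directions as deposited). After centring, which moved the median of all clusters to -0.0662, the median was -0.235 and 2 genes passed the thresholds of the series (1.22%), while 13 were lower (9.67%), as with array weights (8.11%). Under the series' analysis of variance 5 were lower (3.67%) and 0 passed its thresholds (0.524%). With 1 array left out, the lower genes numbered 4 (without untreated array 1 or 3, 2.91% and 3.77%) to 14 (without leaf-treated array 2, 11.7%). The higher ones numbered 0 to 1 (without leaf-treated array 3, 3.61%). Those past the series' thresholds numbered 0 (without untreated array 1 or leaf-treated array 1, 0.575% and 0.715%) to 2 (without leaf-treated array 2, 2.54%). The 1 without untreated array 3 (0.897%) was STIP1. Those whose groups did not overlap numbered 16 to 23 (without untreated array 2 or leaf-treated array 2, 23.2% and 36.7%), while the share of all clusters was 19.3% to 36.7%. The median was then -0.178 to -0.142. In a fit chosen after seeing the data, leaf-treated array 2 alone stood against the untreated arrays and was assumed to vary like them. Then 4 genes were lower (4.46%) and 0 higher (8.15%), 0 passed the series' thresholds (1.01%), 23 did not overlap (49%), and the median was -0.0775.

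Arrays with the same replicate number did not deviate together, with correlations of -0.115, -0.177 and 0.121, where other pairs had -0.188 to 0.271. Whether the numbers pair the samples cannot be told from 3 arrays per group, and the labels do not say. With a replicate block 8 genes were lower (4.95% of all clusters). It moved no other count by over 1.5 times. Differences below about the background level, at 3.28, could not be resolved, which concerns HSPA1L and nearly CRYAB.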
